A study of Mus musculus with 48 samples.

Results

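The nuclear-encoded genes of the mitochondrial respiratory chain were measured in whole mouse jejunum, a part of the small intestine, with and without Bmal1 in the intestinal epithelium. They were taken as the protein-coding genes whose symbol begins with Nduf, Uqcr, Atp5 or Cox4 to Cox8, together with Sdha, Sdhb, Sdhc, Sdhd, Cycs and Cyc1, at a mean of at least 5 CPM (counts per 1000000 counts) over all libraries. Of 96 such genes, 89 reached that level, out of 55401 gene IDs in the table and 33965 with any count. All 89 also passed the filter on low counts and were tested. They comprise 36 subunits and 8 assembly factors of complex I, 4 subunits of complex II, 9 genes of complex III including Cyc1, the gene of cytochrome c, 14 genes of complex IV and 17 of ATP synthase. Just inside the threshold was Ndufaf6 at 6.37 CPM, and just outside it was Ndufa4l2 at 0.907 CPM. The other genes left out were Cox4i2, Cox6a2, Cox8b, Cox7b2, Cox8c and an additional gene ID named Atp5o, the last 3 of them listed at 0 counts.

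Complexes I to IV of the inner mitochondrial membrane pass electrons from NADH and succinate to oxygen and, at complexes I, III and IV, move protons out of the matrix. ATP synthase uses the returning protons to make ATP. Most subunits are encoded in the nucleus and a few core subunits on mitochondrial DNA, so the complexes draw on both sets of transcripts. The absorptive cells of the small intestine depend on this chain for the energy that nutrient uptake consumes.

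The knockout group is labelled Bmal1iec-/- and the control group bmal1fl/fl, which carries floxed Bmal1 alleles. Both were kept in constant darkness and sampled every 4 h from CT1 to CT21, with CT for circadian time, the hour of the cycle that the mice keep by themselves in the dark. Age, sex, strain background and the driver of the recombinase are not in the labels, and nothing says that each library came from its own animal, so the p-values cover only the spread among libraries. There were 4 libraries per group, except 3 for knockout CT9, and 47 in all with 4337218 to 6914138 counts each. The tissue is a mixture in which the epithelium is only one part, and in such bulk samples fewer cells of a type and less RNA per cell cannot be told apart.

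Arntl, the gene symbol of Bmal1, ranged from 18.4 to 37.0 CPM over the knockout libraries and from 8.48 to 89.4 CPM over the control libraries. At CT9 it was at 26.1 to 31.8 CPM in knockout and at 8.48 to 11.3 CPM in control, and at CT21 at 26.0 to 37.0 CPM in knockout and at 66.1 to 89.4 CPM in control. A count over the whole gene does not separate transcripts with and without the deleted part.

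In 5 libraries long genes were low against the other libraries. These were knockout CT1 replicates 1, 2 and 3, knockout CT21 replicate 4 and control CT21 replicate 1. A gene's deviation from its median over libraries (log2) had a slope of -0.87 to -0.36 per unit of log10 exon length in these 5, and of -0.18 to 0.22 in the other 42. The median deviation of the 89 genes was 0.64 to 1.05 in the 5 libraries and -0.22 to 0.35 in the other 42. The results below are therefore given mainly in both ways, with all 47 libraries and without these 5.

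**Figure D1:**
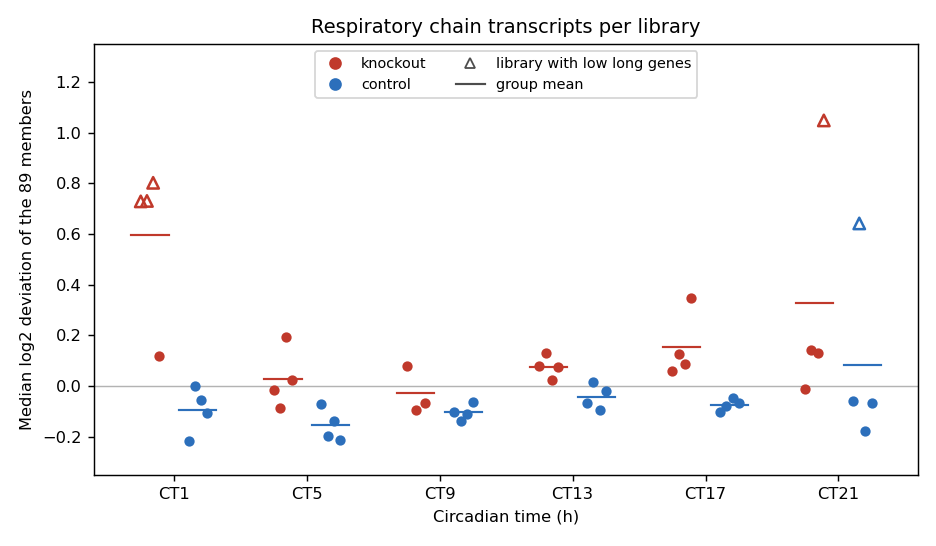
Median log2 deviation of the 89 respiratory chain genes in each library from each gene's median over all 47 libraries (y axis), by circadian time (x axis); knockout in red at the left of each time, control in blue at the right, open triangles for the 5 libraries with low long genes, lines for group means. The triangles lie between 0.64 and 1.05, and the other libraries between -0.22 and 0.35.

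Averaged over the 6 times, respiratory chain transcripts were higher in the knockout jejunum by a small and widely shared amount. Their summed share of all counts was 1.96% ± 0.323 in knockout and 1.66% ± 0.159 in control (SD, n = 23 and 24 libraries). Leaving out the 5 libraries, the shares were 1.83% ± 0.130 in knockout and 1.63% ± 0.065 in control (n = 19 and 23), with ranges of 1.64 to 2.15% and 1.52 to 1.79% that overlap. In edgeR's quasi-likelihood test with Benjamini-Hochberg adjustment over 15646 genes and a threshold of 0.05, 76 of the 89 rose, 1 fell and 12 did not pass. Of all genes tested, 12.2% rose and 11.0% fell. The median log2 fold change (knockout minus control) was 0.28, a fold of 1.21, against -0.01 over all genes. Without the 5 libraries, 65 rose and 1 fell, where 10.3% of all 16463 genes tested rose and 11.1% fell, and the median was 0.18, a fold of 1.13. All 65 were among the 76. Log2 fold changes of the risen genes spanned 0.17 to 0.53 with all libraries and 0.09 to 0.42 without the 5. With all libraries, the difference was above 0 at each of the 6 times in 65 of the 89 genes. This was not counted without the 5 or over all genes.

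Leaving out CT1, the time at which 3 of 4 knockout libraries belong to the 5, gave 33 higher genes with the remaining libraries (7.52% of all genes rose). Leaving out CT1 and the 5 libraries together gave 62 (10.9% of all genes rose). These settings were chosen after seeing the data.

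**Figure D2:**
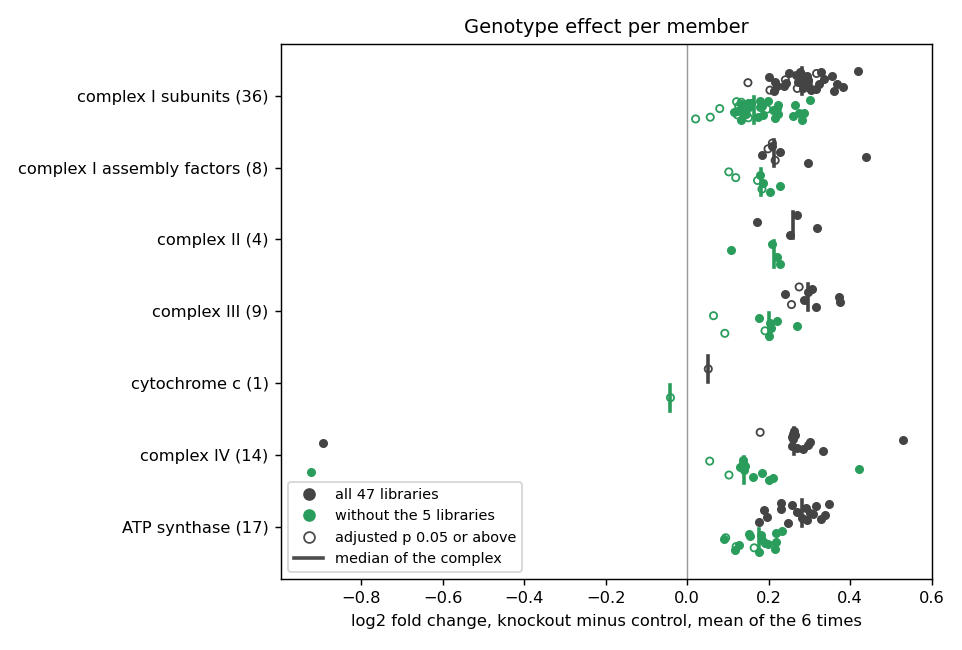
Log2 fold change, knockout minus control, averaged over the 6 times (x axis) for each of the 89 genes by complex (y axis, number of genes in parentheses). Grey points are fits to all 47 libraries and green points fits without the 5 libraries; filled points passed the threshold of 0.05, and vertical lines are medians of the complex, from 0.05 (Cycs alone) to 0.30 with all libraries and from -0.04 to 0.21 without the 5.

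Complex I, the NADH dehydrogenase at which most electrons enter the chain, had 31 of 36 subunits that rose (median log2 fold change 0.28), and 26 without the 5 libraries (median 0.16). The largest changes were in Ndufv3, an accessory subunit of the NADH-binding module, and in Ndufa5, Ndufb10 and Ndufa10, accessory subunits of the peripheral and membrane arms. Ndufv3 spanned 64.1 to 190 CPM over the knockout libraries with a median of 80.3, and 54.2 to 121 CPM over the control libraries with a median of 63.8. Its log2 fold change was 0.42 (SE 0.08, adjusted p = 0.000193 by edgeR), and 0.30 without the 5 libraries. Ndufa10 spanned 138 to 178 CPM in knockout and 106 to 148 CPM in control without the 5 libraries, so the genotypes overlapped only between 138 and 148 CPM. Its log2 fold change was 0.36 (SE 0.07, adjusted p = 4.21e-05 by edgeR), and 0.28 without the 5. The subunits that did not pass were Ndufs7, which carries the last iron-sulfur cluster before ubiquinone, and Ndufa2, Ndufb2, Ndufb7 and Ndufa11, at log2 fold changes of 0.15 to 0.32.

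The Ndufaf genes encode assembly factors that help to build complex I and are not part of the finished enzyme. They were at 6.37 to 32.8 CPM, and 5 of 8 rose with all libraries (median log2 fold change 0.21). When the 5 were left out, 4 rose (median 0.18), and Ndufaf5 was the one that no longer passed. Ndufaf3 had a log2 fold change of 0.44 (SE 0.11, adjusted p = 0.0015 by edgeR) and 0.23 without the 5 libraries (adjusted p = 0.0415). Ndufaf1, an assembly factor of the membrane arm, changed by 0.30 (adjusted p = 0.000582), and by 0.20 without the 5. Ndufaf2, Ndufaf6 and Ndufaf8 did not pass in either setting.

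Complex II, the succinate dehydrogenase that links the tricarboxylic acid cycle to the chain, had all 4 subunits higher in knockout, with all libraries and without the 5. Sdha, the flavoprotein that oxidises succinate, had the least spread. Over all times it ranged from 735 to 989 CPM in knockout, with a median of 805, and from 620 to 756 CPM in control, with a median of 685. Its lowest knockout value came from 1 of the 5 libraries, and the next lowest, 748 CPM, also lay below the highest control value. At CT5 it had 790, 825, 805 and 922 CPM in the knockout libraries and 620, 681, 677 and 683 CPM in the control libraries. The genotypes did not overlap at that time. Over all times its log2 fold change was 0.25 (SE 0.03, adjusted p = 2.12e-07 by edgeR), and 0.23 without the 5 libraries. Sdhb, the iron-sulfur subunit, rose by 0.32 (0.22 without the 5 libraries). The membrane anchors Sdhd and Sdhc rose by 0.27 and 0.17 (0.21 and 0.11 without the 5).

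In complex III, which passes electrons from ubiquinol to cytochrome c, 7 of 9 genes rose (median log2 fold change 0.30), and 6 without the 5 libraries (median 0.20). Uqcrc1, a core protein of the complex, had a log2 fold change of 0.37 (SE 0.08, adjusted p = 0.000245 by edgeR) and 0.27 without the 5. At CT17, where none of the 5 libraries falls, it had 434, 385, 396 and 592 CPM in knockout and 334, 339, 329 and 315 CPM in control. The groups did not overlap, and the highest knockout value stood well above the other 3. Cyc1, the cytochrome c1 that hands electrons to cytochrome c, rose by 0.32 (0.20 without the 5). Uqcrh rose by 0.31 (0.18 without the 5). Uqcr11 changed by 0.38 with all libraries and did not pass without the 5 (0.19, adjusted p = 0.122 by edgeR). The small subunits Uqcrq and Uqcr10 did not pass in either setting.

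Cytochrome c itself, the mobile carrier between complexes III and IV, did not pass the test. Cycs had a log2 fold change over all times of 0.05 (SE 0.06, adjusted p = 0.541 by edgeR) and of -0.04 without the 5 libraries. It ranged from 168 to 440 CPM in knockout and from 177 to 273 CPM in control. The annotation lists 2 pseudogenes of Cycs in the table, and the treatment of reads shared with them is not known.

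In complex IV, the cytochrome c oxidase that reduces oxygen, 12 of 14 genes rose and 1 fell (median log2 fold change 0.26), and without the 5 libraries 11 rose and 1 fell (median 0.14). The genes at both ends of the range are isoforms named for other tissues. Cox7a1, known as the heart and skeletal muscle form of subunit VIIa, was the gene with the largest rise of all 89. At CT5 it had 79.0, 74.8, 80.5 and 81.3 CPM in the knockout libraries and 62.4, 50.6, 47.5 and 58.6 CPM in the control libraries. At CT13 it had 89.4, 92.5, 82.0 and 93.0 CPM in knockout and 76.9, 68.7, 64.3 and 76.1 CPM in control. The groups did not overlap at either time, and none of the 5 libraries is among them. Its log2 fold change over all times was 0.53 (SE 0.08, adjusted p = 5.44e-06 by edgeR) and 0.42 without the 5 (adjusted p = 6.19e-09). Its liver-type counterpart Cox7a2 rose by 0.26 (0.13 without the 5). Per kilobase of exon, Cox7a1 was at 148 CPM and Cox7a2 at 233 CPM, so the muscle-named form was not a trace transcript in this tissue.

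Cox6b2, known as the testis form of subunit VIb, was the only gene of the 89 that fell, and it was low throughout. Per kilobase of exon it was at 7.05 CPM, against 478 CPM for the ubiquitous Cox6b1. At CT17 it had 2.75, 2.98, 3.49 and 6.96 CPM in the knockout libraries and 10.4, 23.4, 15.5 and 12.9 CPM in the control libraries. At CT21, knockout replicates 1 to 3 had 3.50, 4.34 and 4.03 CPM and control replicates 2 to 4 had 12.8, 12.7 and 14.4 CPM. The 2 libraries of the 5 at CT21 read higher, at 15.9 CPM in knockout replicate 4 and 24.9 CPM in control replicate 1. The genotypes did not overlap at CT17 (knockout lay below control in 5.48% of all genes), or at CT21 without those 2 libraries (9.82% of all genes). Its log2 fold change was -0.89 over all times (SE 0.16, adjusted p = 5.14e-05 by edgeR), -0.92 without the 5 libraries, and -1.95 at CT17 (SE 0.40, adjusted p = 0.00242). With all libraries the difference was below 0 at all 6 times. Cox6b1 went the other way, with a rise of 0.30 (0.18 without the 5).

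Of the remaining isoform pairs, the common form carried nearly all transcripts. Per kilobase of exon Cox4i1 was at 348 CPM and Cox4i2, known as the form induced by low oxygen, at 1.13 CPM. Cox6a1 and Cox8a were at 380 and 327 CPM per kilobase, and the muscle forms Cox6a2 and Cox8b at 0.468 and 0.513 CPM per kilobase. Ndufa4, a subunit of complex IV despite its name, was at 206 CPM per kilobase and Ndufa4l2 at 0.828. Cox4i1 rose by 0.33 (0.20 without the 5 libraries) and Ndufa4 by 0.26 (0.14 without the 5). Cox6a1 rose by 0.26 with all libraries and did not pass without the 5 (0.10, adjusted p = 0.154 by edgeR), and Cox8a did not pass in either setting. Cox7a2l, which takes part in joining complexes III and IV, rose by 0.26 (0.14 without the 5).

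All 17 ATP synthase genes rose with all libraries (median log2 fold change 0.28), and 14 rose without the 5 (median 0.18). The genes that no longer passed were Atp5d, Atp5e and Atp5j2. Atp5b, the catalytic beta subunit, had the highest level of the 89 genes per kilobase of exon, at 547 CPM, followed by Cox6b1 at 478 CPM and by Atp5a1, the alpha subunit, at 397 CPM. Atp5b spanned 2120 to 2588 CPM in knockout and 2001 to 2325 CPM in control without the 5 libraries, and its log2 fold change was 0.18 (0.12 without the 5). The genes Atp5g1, Atp5g2 and Atp5g3 encode the same mature c subunit of the proton-driven ring. Of these, Atp5g3 was the highest, at a mean of 685 CPM, against 200 for Atp5g1 and 77.7 for Atp5g2. Per kilobase of annotated exon they were at 314, 40.7 and 46.4 CPM. The order of Atp5g1 and Atp5g2 thus depended on the division by length. The c subunit genes rose alike, by 0.34, 0.31 and 0.30 in the order Atp5g1, Atp5g2 and Atp5g3 (0.20, 0.19 and 0.22 without the 5). The largest change was in Atp5o, the subunit of the stalk that confers sensitivity to oligomycin, at 0.35 (0.22 without the 5).

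Promoters, taken as 250 bases before to 50 bases after the start of transcription in RefSeq (GRCm38.p6), were found for 73 of the 89 genes. Both strands were searched for 3 motifs: GCGCA and GCGC with any base between them, the palindromic core bound by NRF1, a known activator of respiratory genes; CCGGAAG, a core of ETS factors such as GABP; and CACGTG, the E-box bound by BMAL1 with CLOCK. The NRF1 motif was in 19 of the 73 (26.0%), against 5.19% of 27025 genes with a promoter. The ETS motif was in 18 (24.7%), against 9.93%. The E-box was in 5 (6.85%), against 8.09%. These 5 were Atp5g1, Atp5g3, Atp5l, Ndufa7 and Ndufv1. A match is a description of these letters and not of binding.

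The promoters below show Sdha and Ndufb4, which hold 3 NRF1 motifs each, Atp5g3, which holds an E-box and an NRF1 motif, and the isoform genes Cox7a1 and Cox6b2, in which none of the 3 motifs was found. Capitals mark the motifs, and each is written 5′ to 3′ on the strand of its gene. Positions are chr13:74350191-74350490 (minus strand) for Sdha, chr16:37654319-37654618 (minus) for Ndufb4, chr2:73911277-73911576 (minus) for Atp5g3, chr7:30183921-30184220 (plus) for Cox7a1 and chr7:4753045-4753344 (minus) for Cox6b2.
Sdha: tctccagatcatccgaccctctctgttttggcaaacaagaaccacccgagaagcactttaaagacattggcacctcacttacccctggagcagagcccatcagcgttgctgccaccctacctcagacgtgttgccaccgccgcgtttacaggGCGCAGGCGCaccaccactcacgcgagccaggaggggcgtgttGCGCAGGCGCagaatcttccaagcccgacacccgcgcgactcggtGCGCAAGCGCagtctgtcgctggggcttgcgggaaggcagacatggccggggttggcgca
Ndufb4: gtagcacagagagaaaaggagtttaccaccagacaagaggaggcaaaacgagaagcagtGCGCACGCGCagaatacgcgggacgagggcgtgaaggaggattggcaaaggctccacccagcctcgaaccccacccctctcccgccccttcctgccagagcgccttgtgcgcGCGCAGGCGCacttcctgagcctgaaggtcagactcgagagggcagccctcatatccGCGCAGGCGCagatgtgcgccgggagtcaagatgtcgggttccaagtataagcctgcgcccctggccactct
Atp5g3: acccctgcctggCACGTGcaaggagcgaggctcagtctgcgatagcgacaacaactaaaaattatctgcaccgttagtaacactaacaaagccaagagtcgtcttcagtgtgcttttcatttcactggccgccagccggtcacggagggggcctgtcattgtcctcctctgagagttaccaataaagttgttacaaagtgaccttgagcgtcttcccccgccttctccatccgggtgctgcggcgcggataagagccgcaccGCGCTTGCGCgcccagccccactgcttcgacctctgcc
Cox7a1: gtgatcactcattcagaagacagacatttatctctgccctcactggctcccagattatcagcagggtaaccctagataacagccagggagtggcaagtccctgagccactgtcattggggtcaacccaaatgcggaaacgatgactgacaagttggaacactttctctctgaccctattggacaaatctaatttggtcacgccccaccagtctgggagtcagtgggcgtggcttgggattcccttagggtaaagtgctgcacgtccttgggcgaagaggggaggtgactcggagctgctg
Cox6b2: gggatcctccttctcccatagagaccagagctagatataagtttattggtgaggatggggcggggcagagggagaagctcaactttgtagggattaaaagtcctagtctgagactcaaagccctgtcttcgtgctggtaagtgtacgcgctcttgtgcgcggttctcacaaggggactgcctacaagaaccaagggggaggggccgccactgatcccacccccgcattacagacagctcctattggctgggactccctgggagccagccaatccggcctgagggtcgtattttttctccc

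Time by time, the median difference without the 5 libraries was largest at CT17 and smallest at CT9. At CT17, knockout replicates 1 to 4 had median deviations of 0.13, 0.06, 0.09 and 0.35. Replicate 4 stood well above the others, and the difference at CT17 was not examined without it. With all libraries the median log2 fold change of the 89 genes was 0.76 at CT1. It was then 0.19 at CT5, 0.08 at CT9 and 0.12 at CT13, before 0.26 at CT17 and 0.27 at CT21. With the 5 left out it was 0.18 at CT1, 0.17 at CT5 and 0.09 at CT9, followed by 0.12 at CT13, 0.26 at CT17 and 0.20 at CT21. Medians over all genes lay between -0.02 and 0.01 at every time in both settings.

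**Figure D3:**
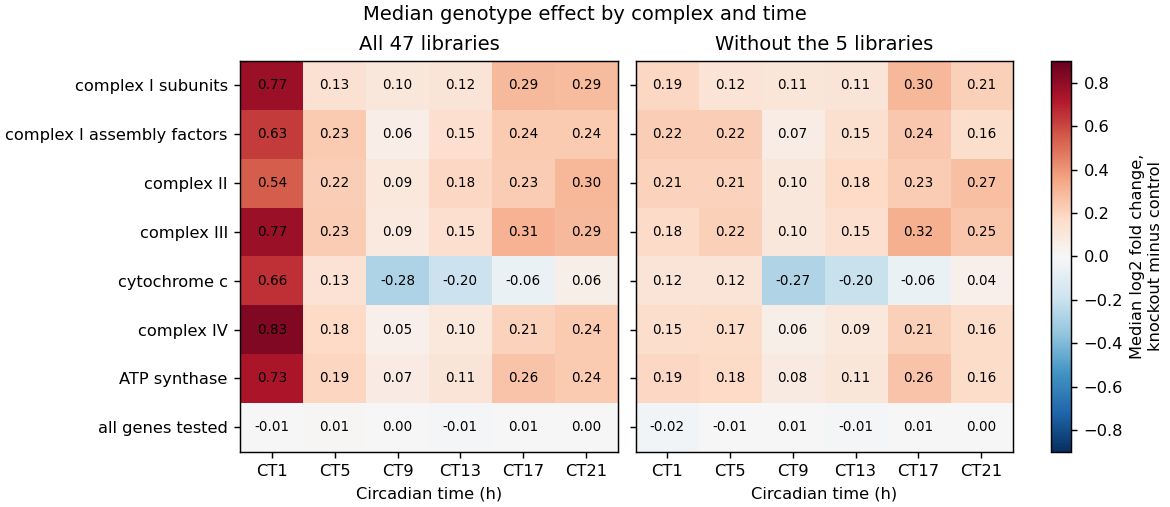
Median log2 fold change, knockout minus control, for each complex and for all genes tested (rows) at each circadian time (columns), with all 47 libraries at the left and without the 5 libraries at the right; red is higher in knockout. With all libraries CT1 stands out at 0.54 to 0.83. Without the 5 the CT17 column is the highest for complexes I, III and IV and ATP synthase, at 0.21 to 0.32. In these complexes knockout replicate 4 has the highest median deviation at CT17. Cycs is below 0 at CT9, CT13 and CT17.

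At CT1, 82 of the 89 rose with all libraries (12.6% of all genes rose), and every knockout library lay above every control library in 67 (9.18% of all genes). Without the 5 libraries a single knockout library remained at CT1, assumed to vary like the other groups, and 1 gene, Cox7a1, passed (0.146% of all genes rose). The largest CT1 differences were those of Cox7a1 at 1.33, Ndufa2 at 1.21, Uqcr11 at 1.16 and Uqcrq at 1.15, which became 0.68, 0.20, 0.34 and 0.14 without the 5. The knockout CT1 library outside the 5 had a median deviation of 0.12, against 0.73 to 0.80 in the other 3 and -0.22 to -0.0013 in the control CT1 libraries.

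Gene length went along with the CT1 difference. In 10 bins of exon length, the median log2 fold change of all genes at CT1 was 0.29 in the shortest bin and -0.30 in the longest. The 89 genes have a median exon length of 1756 bases, and 22 and 31 of them lie in the 2 shortest bins, which hold genes of up to 1928 bases. In the first 8 bins, each with at least 2 of the 89, the medians of the 89 genes were 0.61 to 0.86 and those of all genes -0.12 to 0.31. With a length trend per library as an offset in the fit, the median of the 89 at CT1 was 0.57, and 79 rose over all times (13.1% of all genes rose). Without the 5 libraries the bins of all genes lay between -0.14 and 0.02 and those of the 89 between 0.13 and 0.25.

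**Figure D4:**
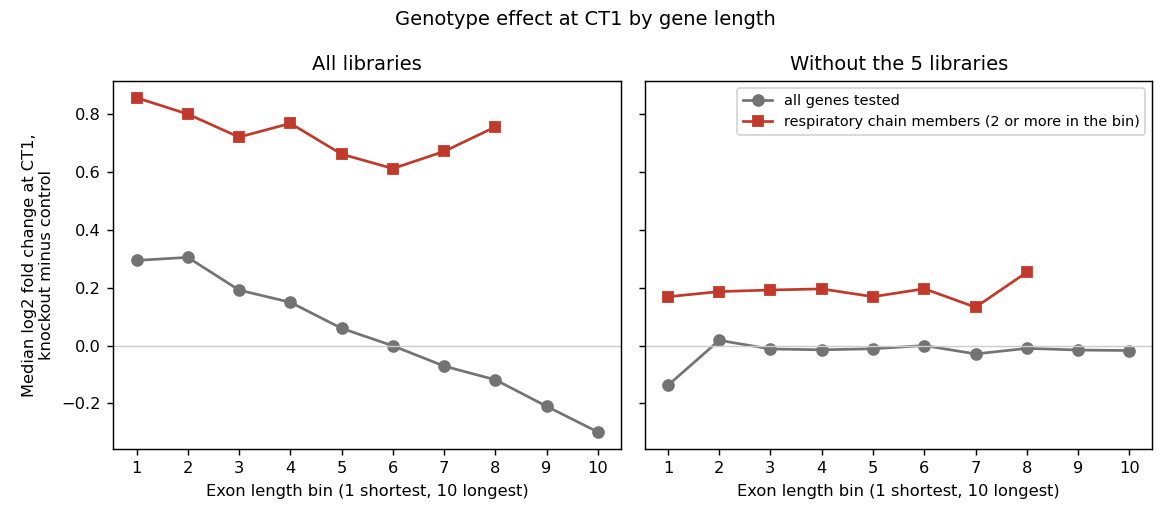
Median log2 fold change at CT1, knockout minus control (y axis), in 10 bins of exon length from shortest to longest (x axis), with all libraries at the left and without the 5 at the right; grey for all genes tested, red squares for the respiratory chain genes in bins that hold at least 2 of them. At the left all genes run from 0.29 to -0.30 and the respiratory chain genes lie at 0.61 to 0.86; at the right they lie at 0.13 to 0.25.

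From CT5 to CT17 none of the 5 libraries is present, but all groups share an estimate of the spread, and the calls at these times differed with and without the 5. At CT17 1 gene passed with all libraries, Cox6b2, which fell (1.41% of all genes fell, a larger share than among the 89). Without the 5, 32 rose and Cox6b2 fell, where 2.20% of all genes rose and 2.87% fell. The fold changes were nearly the same in both fits. Ndufv3 changed by 0.49 in each, with adjusted p = 0.29 with all libraries and 0.000989 without the 5 by edgeR. Every knockout library lay above every control library at CT17 in 50 of the 89 genes (5.37% of all genes). Of the 32, 16 were complex I subunits, 1 an assembly factor, 2 complex II, 3 complex III, 4 complex IV and 6 ATP synthase genes. Knockout CT17 replicate 4 was the highest library outside the 5, with a median deviation of 0.35.

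At CT5 the gene that passed with all libraries was Sdha (0.33, adjusted p = 0.0373 by edgeR; 0.499% of all genes rose). This call was lost in 43 of the 47 fits that left out a single library, and under RLE scaling, upper quartile scaling and no filter, and it was kept without the 5 (0.32, adjusted p = 0.0027). Without the 5, 6 rose (1.03% of all genes rose), among them Sdha, Atp5c1 and Cox7a1. All knockout libraries lay above all control libraries in 26 genes (4.44% of all genes). At CT13 the gene that passed was Atp5s, an ATP synthase coupling factor (2.04% of all genes rose). It had 10.5, 9.64, 11.4 and 8.69 CPM in knockout and 5.90, 6.21, 5.22 and 6.55 CPM in control, without overlap, at a log2 fold change of 0.75 (SE 0.17, adjusted p = 0.00389 by edgeR), and also 0.75 without the 5. Without the 5, 7 rose at CT13 (4.02% of all genes rose). All knockout libraries lay above all control libraries at CT13 in 30 genes (7.78%). Knockout lay below control in Cox6b2 and Cycs, a smaller share than over all genes (5.89%).

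At CT9, with 3 knockout libraries, none of the 89 passed edgeR's test with all libraries (3.60% of all genes changed). At an unadjusted p under 0.05 there was 1, and DESeq2 also called none. Without the 5, Ndufa6 and Ndufv3 rose (2.68% of all genes rose). All knockout libraries lay above all control libraries in 5 genes (6.61%), a share below that of all genes. The share of the 89 that rose at CT9 without the 5 was also below that of all genes. At CT21, where 1 library of each genotype belongs to the 5, none passed with all libraries (1.43% of all genes changed), and DESeq2 called 2. At an unadjusted p under 0.05 there were 25, but all genes were not counted at that level, here or at CT9. Without the 5, 8 rose and Cox6b2 fell (0.856% of all genes rose and 0.893% fell), and 43 genes lay above control in every library (8.83%), against 2 with all libraries (1.90%).

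Over the day, the number of rhythmic respiratory chain genes in knockout depended on the 5 libraries. The rhythm was tested as a cosine of 24-h period in each genotype, with an amplitude measured from the mid-level to the peak in log2 units. With all libraries 69 of the 89 were rhythmic in knockout (14.6% of all genes), and 66 of these peaked between CT21 and CT1, the times at which the 5 libraries lie. With the 5 left out, 11 were rhythmic in knockout (10.4% of all genes, a share near that of the 89). At an unadjusted p under 0.05 there were 37, but all genes were not counted at that level. The 11 had peaks from CT15.2 to CT19.9. The largest amplitudes with all libraries were those of Uqcrq, Ndufa2, Uqcr10 and Ndufa13, at 0.46 to 0.52, and without the 5 these were 0.11 to 0.19 and did not pass.

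In control, 7 were rhythmic with all libraries (20.5% of all genes) and 13 without the 5 (29.0% of all genes), and all 7 were among the 13. Ndufaf4, the assembly factor with the clearest rhythm, peaked at CT15.3 in knockout, with an amplitude of 0.34 (adjusted p = 0.000952 by edgeR), and at CT14.6 in control, with an amplitude of 0.43 (adjusted p = 4.73e-06). Without the 5 the amplitudes were 0.40 in knockout and 0.42 in control, and both passed. Ndufab1, the mitochondrial acyl carrier protein that is also a complex I subunit, had 88.3, 102, 108 and 92.4 CPM in knockout at CT17 and 76.2, 65.6, 87.7 and 83.5 CPM in control. At CT9 it had 67.3, 72.3 and 79.6 CPM in knockout and 54.7, 63.3, 62.4 and 69.5 CPM in control. In knockout Ndufab1 was thus lower at CT9 than at CT17 without overlap. In control its mean was lower at CT9 (62.5 against 78.3 CPM), but the values overlapped. Its peak was CT18.1 in knockout and CT18.4 in control without the 5 libraries, and it passed in both. Cox6b2 did not pass in knockout (amplitude 0.05, adjusted p = 0.977 by edgeR) and was rhythmic in control (amplitude 0.68, peak CT18.8, adjusted p = 0.0026). Atp5s did not pass in knockout and peaked at CT2.81 in control with an amplitude of 0.31.

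The rhythm differed between genotypes in 1 gene, Cycs, with all libraries (adjusted p = 0.0183 by edgeR; 1.50% of all genes). Cycs had 365, 440, 229 and 222 CPM in knockout and 191, 203, 191 and 212 CPM in control at CT1, and the 3 highest of the knockout values come from the 5 libraries. At CT13 it had 230, 232, 230 and 204 CPM in knockout and 250, 263, 245 and 270 CPM in control, in which none of the 5 libraries takes part and the groups did not overlap. At CT9 it had 176, 205 and 206 CPM in knockout and 237, 265, 195 and 250 CPM in control, with overlap. Its peak was CT22.0 in knockout and CT15.6 in control with all libraries. Without the 5 the peaks were CT19.2 and CT15.4 and the difference did not pass (adjusted p = 0.145). Without the 5 the gene that differed was instead Cox6b2 (adjusted p = 0.0157; 1.59% of all genes), with amplitudes of 0.24 in knockout and 0.61 in control.

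**Figure D5:**
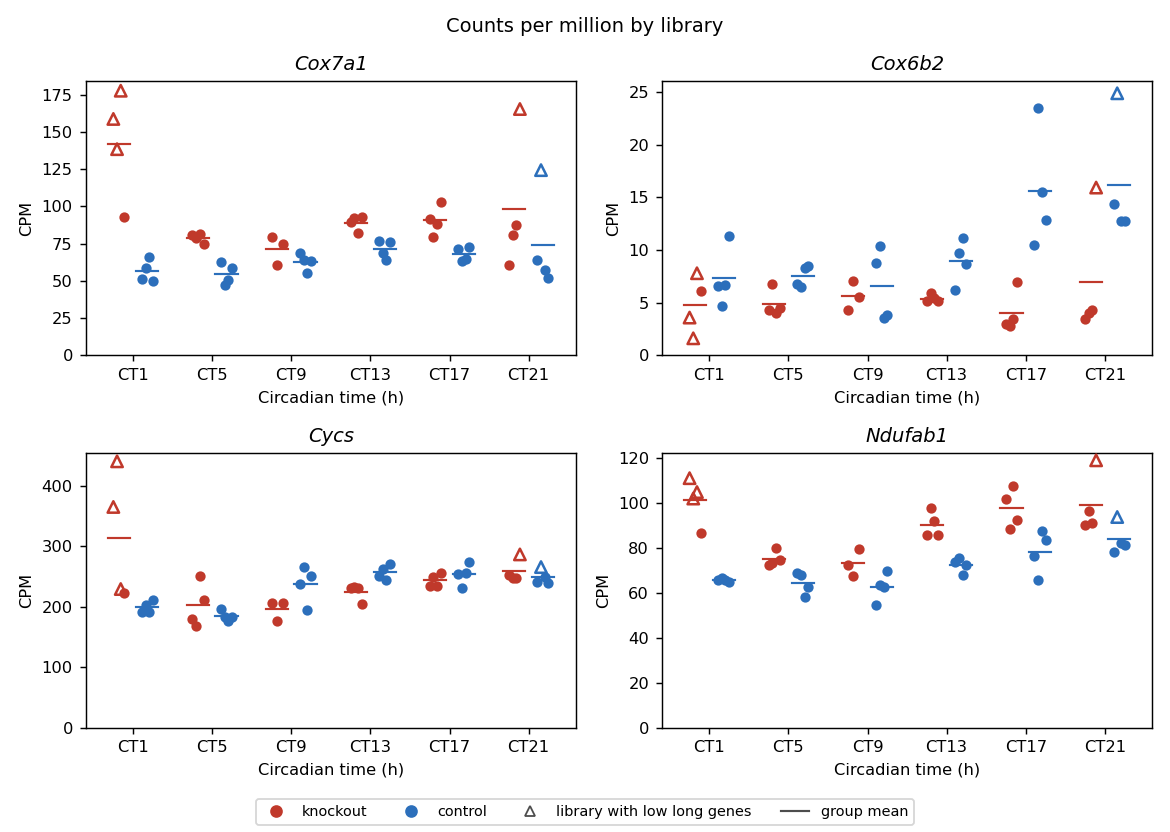
CPM per library (y axis) by circadian time (x axis) for Cox7a1, Cox6b2, Cycs and Ndufab1; knockout in red at the left of each time, control in blue at the right, open triangles for the 5 libraries with low long genes, lines for group means. Cox7a1 lies higher and Cox6b2 lower in knockout, while Cycs at CT13 lies at 204 to 232 CPM in knockout and 245 to 270 CPM in control.

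Genes around the chain moved in the same direction in part. Of the assembly factors not named Nduf, 7 of 9 for complex I, 1 of 4 for complex II, 4 of 6 for complex III, 11 of 20 for complex IV and 4 of 4 for ATP synthase rose with all libraries. Of all genes tested, 12.2% rose. Without the 5 these counts were 1, 1, 2, 7 and 4, where 10.3% of all genes rose. The count for complex I was then near that share. Sco1, a copper chaperone of complex IV, rose by 0.28 (adjusted p = 5.39e-07 by edgeR; 0.29 without the 5), and Uqcc1, an assembly factor of complex III, by 0.27 (0.24 without the 5). Atpaf2, a chaperone of the ATP synthase head, rose by 0.21 (0.18 without the 5). Ecsit rose by 0.36 and Sdhaf3 by 0.31 (0.29 and 0.28 without the 5).

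The subunits encoded on mitochondrial DNA took 4.69% ± 0.929 of counts in knockout and 4.13% ± 0.486 in control (SD, n = 23 and 24), and 4.79% ± 0.372 and 4.19% ± 0.393 without the 5 (n = 19 and 23). Of 13 of these genes 5 rose with all libraries (median 0.18) and 8 without the 5 (median 0.17). mt-Nd4 rose by 0.21 (0.20 without the 5) and mt-Nd6 by 0.27 (0.21 without the 5), both subunits of complex I. The kit selects polyadenylated RNA. Most mitochondrial messenger RNAs carry only a short tail, and how well each was captured, mt-Nd6 among them, was not tested.

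In the tricarboxylic acid cycle, which feeds the chain with NADH and succinate, 11 of 13 genes rose (median 0.24), and 10 without the 5 (median 0.22). The largest rise was in Suclg2, the GTP-specific beta subunit of succinyl-CoA ligase, whose product succinate is the substrate of complex II. It spanned 139 to 212 CPM in knockout and 90.1 to 140 CPM in control, so the genotypes met only at about 140 CPM. Its log2 fold change was 0.63 (SE 0.04, adjusted p = 1.23e-17 by edgeR), and 0.62 without the 5. Idh3b and Dlst rose by 0.31 and 0.28 (0.27 and 0.23 without the 5). Of 5 genes for the entry of other electrons into ubiquinone, 2 rose (median 0.15), and the same 2 without the 5 (median 0.02). Etfa and Etfdh, which bring electrons from fatty acid oxidation to ubiquinone, rose by 0.37 and 0.38 (0.31 and 0.37 without the 5).

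None of the 3 carriers that supply ATP synthase with ADP and phosphate passed as higher. Slc25a3, the phosphate carrier, was at 0.11 (adjusted p = 0.0618 by edgeR) and at 0.07 without the 5 (adjusted p = 0.162). Slc25a4, an adenine nucleotide carrier, was at -0.11 (adjusted p = 0.226 by edgeR) and passed as lower without the 5, at -0.17 (adjusted p = 0.0275). Slc25a5, the main adenine nucleotide carrier here, ranged from 1329 to 2181 CPM in knockout and from 1299.8 to 2374 CPM in control. It fell by 0.17 over all times (SE 0.04, adjusted p = 0.00284 by edgeR) and by 0.22 without the 5. Its rhythm also differed between genotypes with all libraries (adjusted p = 0.000753 by edgeR). For this gene the difference in rhythm was not examined without the 5. Of 14 regulators of mitochondrial biogenesis, 2 rose and 1 fell, near the shares of all genes (12.2% rose and 11.0% fell). Polrmt and Tfb2m, which transcribe mitochondrial DNA, rose by 0.24 and 0.18. Without the 5, 2 of the 14 rose and none fell, where 10.3% of all genes rose and 11.1% fell. Among these 2 was Tfb2m, which rose by 0.22, whereas Polrmt did not pass (0.15, adjusted p = 0.173 by edgeR). Ppargc1a, a coactivator of respiratory genes, fell by 0.28 (adjusted p = 0.0478), and without the 5 its difference was -0.20 (adjusted p = 0.056). Nrf1 was at -0.01 (adjusted p = 0.946).

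Some markers of other cells in the tissue also differed between genotypes. Of all genes tested, 12.2% rose and 11.0% fell (10.3% and 11.1% without the 5). All 8 T cell markers fell (median -1.30, and -1.33 without the 5, where all 8 fell), with a summed level of 86.7 to 177 CPM in knockout and 163 to 460 CPM in control, and none was at 0. Of 6 B and plasma cell markers 5 fell in both settings (median -0.95, and -1.15 without the 5), with sums of 263 to 1139 CPM in knockout and 514 to 1053 CPM in control. Ms4a1 and Mzb1 were at 0 in some libraries. Of 10 enterocyte markers 3 rose and 2 fell (median 0.08; 2 rose and 2 fell without the 5), with sums of 21072 to 38780 CPM in knockout and 20681 to 35344 CPM in control. The 7 smooth muscle markers had adjusted p from 0.555 to 0.984 by edgeR (0.229 to 0.989 without the 5), with sums of 1082 to 2761 CPM in knockout and 783 to 2482 CPM in control. Of 7 fibroblast and endothelium markers 3 fell (median -0.17; 4 fell without the 5), with sums of 280 to 561 CPM in knockout and 395 to 679 CPM in control. Of 7 crypt markers 1 fell (median -0.14; 3 fell without the 5), with sums of 1000 to 2047 CPM in knockout and 1128 to 1964 CPM in control. Ucp1, Myh6, Myh7 and Myh4 of brown fat, heart and skeletal muscle were below the filter. Of the other 3 markers in that list 1 fell in both settings (median -0.11, and -0.26 without the 5). Of 3 ileum and colon markers tested, from 5 listed, 1 fell in both settings (median -0.32, and -0.24 without the 5). The part of these cells in the rise of the respiratory chain genes was not tested.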

How the data were processed

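The authors deposited a table of unscaled read counts, with 1 row per gene and 1 column per library. The labels' protocols name a NucleoSpin kit for RNA and the TruSeq Stranded mRNA kit for the libraries. Tools in the submitters' processing notes include STAR 2.7.5c and featureCounts 1.4.6, and the build is mm10. How strand and reads with several positions were counted is not stated there. Exons overlapped those of another gene on the same strand for 5 of the 89 genes and on the opposite strand for 27, and 6 have pseudogenes of their name in the table, so these values are less certain. A column matched 47 libraries by name, and the remaining library, a knockout CT9 one, was not analysed here.

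Symbols, exon lengths and positions came from GENCODE M21 (mm10): 54349 IDs matched with their version, 792 without it and 260 not at all. In R 4.3.3, edgeR 4.0.16 kept 15646 genes (filterByExpr, minimum count 10, minimum total 15), scaled libraries by TMM and fitted 1 mean per group to all libraries by quasi-likelihood with robust variances (35 residual degrees of freedom). Contrasts were knockout minus control, averaged over the 6 times and at each time. A model with a 24-h cosine and sine per genotype (41 residual degrees of freedom) tested rhythms. P-values were adjusted by Benjamini-Hochberg over all genes, with a threshold of 0.05. CPM values in text and figures are relative to the scaled library size. Levels per kilobase, the means beside them and the level of 5 that chose the genes use the library total. Levels per kilobase divide by the merged length of all annotated exons of a gene, which can exceed the length of its main transcript. The scripts were tested on simulated data. The genes, lists and the rule for named genes were chosen with earlier results of these data known. The rule names, per complex and per time, up to 4 called genes with the largest change, genes called for a difference in rhythm, the largest rhythms, isoform pairs, complex II, Cycs and Cyc1, the 3 highest levels per length, the genes nearest the threshold and up to 3 called genes per other list. Other genes named were chosen after their values were seen. Single genes withheld from the text are not reported here. Alternatives were leaving out the 5 libraries (16463 genes tested), leaving out each library, RLE or upper quartile scaling, no filter, a lowess length trend per library as an offset, DESeq2 1.42.0, group means in place of the cosine, and the mean without CT1. Replicate numbers were given in accession order and pair nothing. Precision is limited by 4337218 to 6914138 counts per library.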

Additional observations from a re-analysis of the deposited data

Results flagged for a closer look

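In 13 of 88 groups of 4 libraries tested, 1 library stood apart from the other 3, where chance alone flags about 1 in 20 groups. The test used the median deviation of the 89 genes and the CPM of 7 genes, each in the same groups of libraries. A single unusual library can thus be flagged several times, and the flags are not independent of each other. Of the 13, 9 concern knockout CT21 replicate 4 or control CT21 replicate 1, both among the 5 libraries with low long genes. Knockout CT21 replicate 4 had a median deviation of 1.05, and its CPM was 15.9 for Cox6b2, 286 for Cycs and 190 for Ndufv3, each above the other knockout CT21 libraries. Control CT21 replicate 1 had a median deviation of 0.64, and its CPM was 124 for Cox7a1, 24.9 for Cox6b2, 10.8 for Atp5s and 121 for Ndufv3, each above the other control CT21 libraries.

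Knockout CT1 replicate 4 had a median deviation of 0.12, apart from the other knockout CT1 libraries, which are the ones with low long genes. In groups without any of the 5 libraries, Cycs was at 204 CPM in knockout CT13 replicate 4, below the other 3. Sdha was at 790 CPM in knockout CT13 replicate 3 and at 620 CPM in control CT5 replicate 1, each below the other 3 libraries of its group.

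Cycs was also flagged because its time course differed between genotypes. The test of the difference in 24-h rhythm gave an adjusted p of 0.0183, and the test with group means in place of the cosine gave 0.0292, both by edgeR's quasi-likelihood test with all libraries. The difference in rhythm did not pass without the 5 libraries (adjusted p = 0.145).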

How the results depend on the processing

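The count of genes higher in knockout over all times stayed within 1.5 times of 76 when the 5 libraries were left out (65) and under RLE scaling (76), upper quartile scaling (70), no filter (71), the length offset (79) and DESeq2 (80), and 1 gene fell in each. Over the 5 times without CT1 it was 33. Leaving out single libraries gave 71 to 83 higher genes. Calls at single times depended on the setting. Without the 5 libraries, the genes called numbered 1 at CT1 (82 with all libraries), 6 at CT5 (1 with all) and 2 at CT9 (0 with all). They numbered 7 at CT13 (1 with all), 33 at CT17 (1 with all) and 9 at CT21 (0 with all). At CT5 RLE scaling, upper quartile scaling and no filter each gave 0, and the length offset and DESeq2 gave 2. The length offset gave 3 at CT17 and 4 at CT21, and DESeq2 gave 2 at CT13, 4 at CT17 and 2 at CT21. Leaving out single libraries gave 72 to 83 calls at CT1, 0 to 1 at CT5 and 0 at CT9. The CT5 call, Sdha, was lost in 43 of these 47 fits. It gave 1 to 2 calls at CT13 and CT17 and 0 to 18 at CT21. The 18 came without control CT21 replicate 1.

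Rhythmic genes numbered 11 in knockout and 13 in control without the 5 libraries, against 69 and 7 with all. Leaving out single libraries gave 45 to 79 in knockout, 45 without knockout CT21 replicate 4, and 6 to 8 in control. A difference in rhythm was called for 0 to 3 genes. No gene called with all libraries changed its direction among the named genes under the alternatives run, whereas Cycs, which passed in neither setting, was at 0.05 with all libraries and -0.04 without the 5. Of the respiratory chain genes named by the rule, Atp5d, Cox6a1, Ndufa13, Ndufaf5 and Uqcr11 no longer passed over all times without the 5. Of the genes that the rule named from the other lists, Acad9, Timmdc1, Uqcc2, mt-Co2, Polrmt and Ppargc1a also no longer passed. The cause of these differences was not tested. No paired analysis was possible because the labels and columns carry no replicate numbers. At CT1 without the 5 libraries knockout has 1 library, and at these depths small differences of genes near 5 CPM may go undetected.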
